A study of Mus musculus with 17 samples.

Results

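H3K4me3, trimethylation of lysine 4 of histone H3, was compared between CD8 thymocytes that lack the transcription factors Tcf1 and Lef1 and wild-type CD4 thymocytes. The members were all islands of 1 H3K4me3 library from each group, 23411 from the deficient CD8 cells and 28449 from the CD4 cells, or 51860 of the 346699 islands deposited for the 12 histone libraries of the series. An island is a stretch of the genome in which the authors' caller found more reads than background. Joining islands that overlapped by 1 bp or more gave 44120 regions.

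The deficient cells (DKO CD8) had the genotype Tcf1-/-Lef1-/-, with both genes deleted by CD4-Cre, a recombinase that becomes active in thymocytes before they choose the CD4 or the CD8 lineage. They were sorted as mature thymocytes, TCRbeta high, CD69– and CD24–, and positive for CD8. The other cells (WT CD4) were wild-type mature thymocytes of the CD4 lineage. Their titles and source names say CD4, while their phenotype label repeats the CD8 sort. Wild-type CD8 thymocytes (WT CD8) and a Tcf1 profile of splenic CD8 cells from wild-type mice were used only as further readouts. Genotype and lineage differ together between DKO CD8 and WT CD4, so their parts cannot be told apart here. The labels do not give strain, age, sex or how many mice went into a library. Genes at the regions were not analysed here, since the regions are on the mm9 build, and the cells were therefore not checked against marker genes or for loss of the deleted ones.

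H3K4me3 is written by SET1 and MLL complexes and marks the start sites of active and poised genes, where it is read by general transcription factors. At active promoters it usually lies beside acetylation of the same histone (H3K27ac and H3K9ac), and at silent developmental genes it can lie beside H3K27me3, the mark of Polycomb complexes. Tcf1 and Lef1 are DNA-binding factors of T cell development that help CD8 thymocytes keep CD4-lineage genes silent.

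Each group had 1 library per mark, so differences could not be set against a spread between replicates, p-values were not computed, and intervals cover counting error only. H3K4me3 islands held 611691 reads over 21.7 Mb in DKO CD8 (28.1 reads per kb) and 850538 reads over 27.8 Mb in WT CD4 (30.6 reads per kb). The median island was 800 bp wide in both libraries and held 17 reads in DKO CD8, against 19 in WT CD4, with a minimum of 10 reads in both. Reads outside islands are not known, and a library may have had reads below the calling threshold at a region where it has no island.

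Most H3K4me3 regions were called in 1 library. DKO CD8 alone had 15742 regions and WT CD4 alone had 20831, while 7547 (17.1%, 95% interval 16.8 to 17.5) had islands in both. The shared regions were the stronger ones. They held 49.7% of the DKO CD8 island reads and 53.3% of the WT CD4 island reads, with medians of 30 reads in DKO CD8, against 48 in WT CD4 and a median width of 1200 bp. Regions of DKO CD8 alone had a median of 15 reads and those of WT CD4 alone a median of 16, both close to the minimum. At least 50 reads were held by 1.49% of the regions of DKO CD8 alone and by 1.23% of those of WT CD4 alone, against 49.3% of the shared regions, counting the library with more reads. In 97.5% of shared regions each library had exactly 1 island. Regions of 1 library were seldom shoulders of shared ones: 1.27% of those of DKO CD8 alone and 1.65% of those of WT CD4 alone lay within 2 kb of a shared region.

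Agreement between the libraries followed island strength. With islands ranked by reads within their own list, and cut into 10 classes of equal size, the weakest class of DKO CD8 islands met a WT CD4 island in 8.45% of cases and the strongest in 83.3%. For WT CD4 islands the weakest class met a DKO CD8 island in 3.27% of cases and the strongest in 94.8%. Of the 1000 strongest islands, 84.1% in DKO CD8 (81.7 to 86.3) and 95.8% in WT CD4 (94.4 to 97.0) had a counterpart. The 1000 strongest islands of other marks matched more fully for H3K27ac (99.1% in DKO CD8, against 99.4% in WT CD4) and H3K27me3 (99.7% and 99.5%). For H3K9ac the order of the libraries was the other way round, with 94.6% in DKO CD8 and 82.7% in WT CD4. The 100 strongest H3K4me3 islands matched less often than the 1000 strongest, in 66.0% of cases in DKO CD8 and 77.0% in WT CD4.

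**Figure D1:**
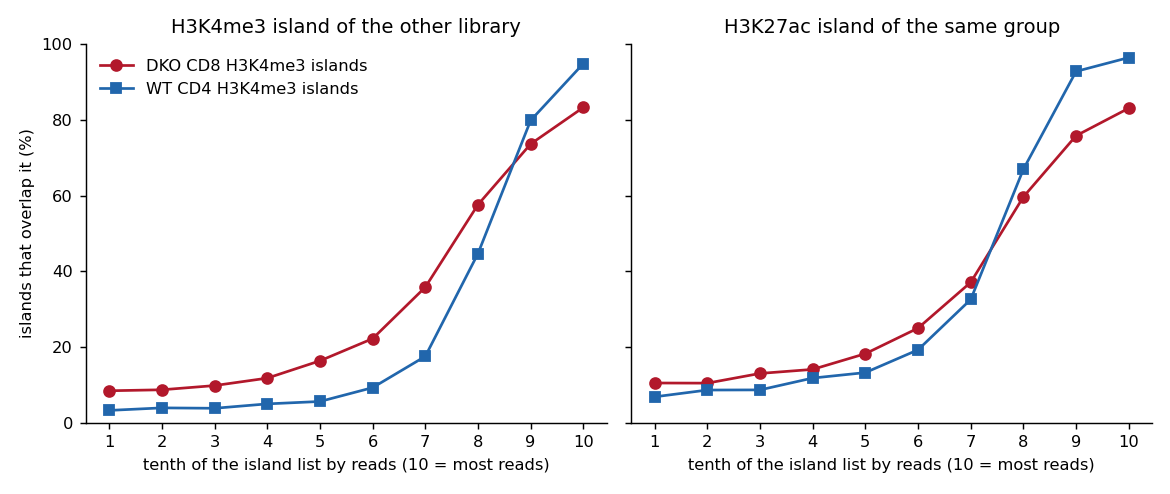
Share of H3K4me3 islands (percent) that overlap an H3K4me3 island of the other library (left) or an H3K27ac island of their own group (right), by strength class from 1 (fewest reads) to 10 (most reads), for DKO CD8 (circles) and WT CD4 (squares). Both shares climb with strength, and in class 10 DKO CD8 stands at 83.3% and 83.0%, below WT CD4 at 94.8% and 96.4%.

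Shared H3K4me3 regions carried the marks of active promoters. An H3K27ac island overlapped 91.4% of them in either group, and an H3K9ac island 52.6% in DKO CD8 and 87.5% in WT CD4. The H3K9ac lists differ in size, with 6516 islands in DKO CD8 and 32651 in WT CD4. H3K27me3 islands overlapped 14.1% of the shared regions in DKO CD8 and 10.3% in WT CD4. Regions of DKO CD8 alone were largely bare: 7.06% had H3K27ac, 3.11% H3K9ac and 10.4% H3K27me3 in DKO CD8 itself, and 17.3% had any of these marks there. Regions of WT CD4 alone carried more, with H3K27ac in WT CD4 at 15.3%, H3K9ac at 17.4% and H3K27me3 at 22.9%. The H3K27me3 lists also differ in size, covering 96.1 Mb in DKO CD8 and 142.0 Mb in WT CD4, and over all 44120 regions H3K27me3 lay at 14.1% in DKO CD8 and 16.2% in WT CD4. A Tcf1 peak of splenic CD8 cells lay in 33.9% of shared regions, in 1.01% of those of DKO CD8 alone and in 2.66% of those of WT CD4 alone. Over all 44120 regions that share was 7.42%.

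**Figure D2:**
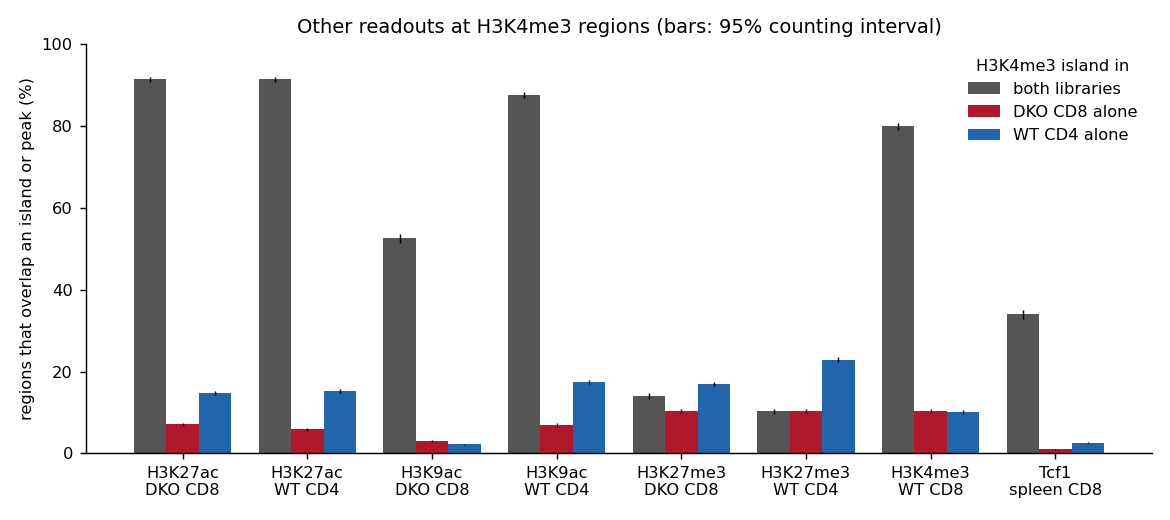
Share of H3K4me3 regions (percent) that overlap an island or peak of another readout, for shared regions (grey), those of DKO CD8 alone (red) and those of WT CD4 alone (blue); error bars are exact 95% intervals and cover counting error only. H3K27ac overlaps 91.4% of shared regions in each group, against 7.06% of those of DKO CD8 alone in DKO CD8 and 15.3% of those of WT CD4 alone in WT CD4.

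The 2 lists of single-library regions also differed in H3K27ac within bands of raw reads, which are not equal strength, since reads in DKO CD8 were 0.65 times those in WT CD4 at the median shared region. Among regions of 50 to 99 reads, 9.78% of the 184 of DKO CD8 alone had an H3K27ac island in DKO CD8, whereas 71.1% of the 218 of WT CD4 alone had one in WT CD4. Shared regions in that band had H3K27ac in 98.3% of cases in DKO CD8 and in 99.1% in WT CD4. In the band of 30 to 49 reads the single-library shares were 14.0% of 843 in DKO CD8 and 60.5% of 1376 in WT CD4. The gap was smaller in the other bands, with 5.90% in DKO CD8 and 8.23% in WT CD4 at 10 to 19 reads, 9.92% and 21.9% at 20 to 29, and 13.7% of 51 and 31.6% of 38 at 100 or more. Of all single-library regions with at least 50 reads, 21 of 235 in DKO CD8 alone had H3K27ac in WT CD4, and 157 of 256 in WT CD4 alone had H3K27ac in DKO CD8. H3K27ac in both groups was found at 14 of these 235 regions and at 147 of these 256. Another H3K4me3 list, that of WT CD8, had an island in 51.5% of the strong regions of DKO CD8 alone and in 51.6% of those of WT CD4 alone.

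Agreement between the libraries also went with the other marks in both groups. Of 8117 regions with H3K27ac in both groups and no H3K27me3 in either, 5821 (71.7%) had H3K4me3 in both libraries, 553 (6.81%) were of DKO CD8 alone and 1743 (21.5%) of WT CD4 alone. Of 25239 regions with neither H3K27ac nor H3K27me3 in either group, 338 (1.34%) were shared, 12200 were of DKO CD8 alone and 12701 of WT CD4 alone. Of 6495 regions with H3K27me3 and no H3K27ac in either group, 192 (2.96%) were shared, 2148 were of DKO CD8 alone and 4155 of WT CD4 alone. H3K4me3 was thus rarely called in both libraries where H3K27ac was called in neither group.

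The acetylated shared regions with the most reads and without H3K27me3 in either group were chosen after their values were seen. Chromosome 2, 31936001 to 31940400, held 204 H3K4me3 reads in DKO CD8, against 339 in WT CD4, with 234 in WT CD8. Chromosome 1, 90594601 to 90599600, held 162 in DKO CD8, against 285 in WT CD4, and has 1 Tcf1 peak. Chromosome 3, 52071401 to 52074600, held 143 in DKO CD8 and 294 in WT CD4. Relative to the median ratio of all shared regions these are log2 ratios of -0.11 (-0.37 to 0.14), -0.19 (-0.48 to 0.09) and -0.42 (-0.72 to -0.13). The intervals of the first and second include 0, and that of the third does not. The highest reads of this kind lay at neighbouring places on chromosome 8, at 20018401 to 20029800 (562 reads in DKO CD8, against 667 in WT CD4) and at 19780401 to 19787200 (294 in DKO CD8 and 288 in WT CD4). Both also had H3K27me3 islands in WT CD8.

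At shared regions, reads in DKO CD8 were 0.65 times those in WT CD4 at the median, and log2 ratios are given relative to that median. The ratio had a standard deviation of 0.62 over regions. Past 2-fold towards DKO CD8 were 459 of 7547 regions (6.08%), and at least 2-fold lower were 325 (4.31%). The split depended on scaling. With total island reads as the divisor, which shifts every ratio by -0.15, 302 regions were higher and 534 lower. When 50 scaled reads were required of the higher library, 226 were higher and 238 lower. Regions with H3K27ac in both groups had 290 of 6776 higher and 312 lower. They are 89.8% of shared regions, so centring on all shared regions sets them near even. Their median was -0.19 on total island reads. Regions with H3K27ac in neither group had 131 of 530 higher and 4 lower, at medians of 17 reads in DKO CD8 and 18 in WT CD4. At 18 reads in WT CD4, a 2-fold lower call would need fewer DKO CD8 reads than the minimum of 10. A higher call stays possible, so the 2 counts cannot be compared at such low reads. Most regions with H3K27ac in neither group were weak, with 439 in the weakest of 4 strength classes of shared regions, where 91 were higher and 2 lower. In the stronger classes 22 of 41, 6 of 16 and 12 of 34 were higher and 1, 1 and 0 lower, with median log2 ratios of 1.04, 0.57 and 0.72. The class of 41 had a median of 26 reads in WT CD4, so the same minimum limits its lower calls. The class of 34 held medians of 142 reads in DKO CD8 and 120.5 in WT CD4. Of the regions 2-fold lower in DKO CD8, 97.5% had H3K27ac in DKO CD8 and 97.2% in WT CD4, against 68.8% and 65.8% of those 2-fold higher. The minimum of 10 reads keeps regions weak in WT CD4 out of the lower set.

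**Figure D3:**
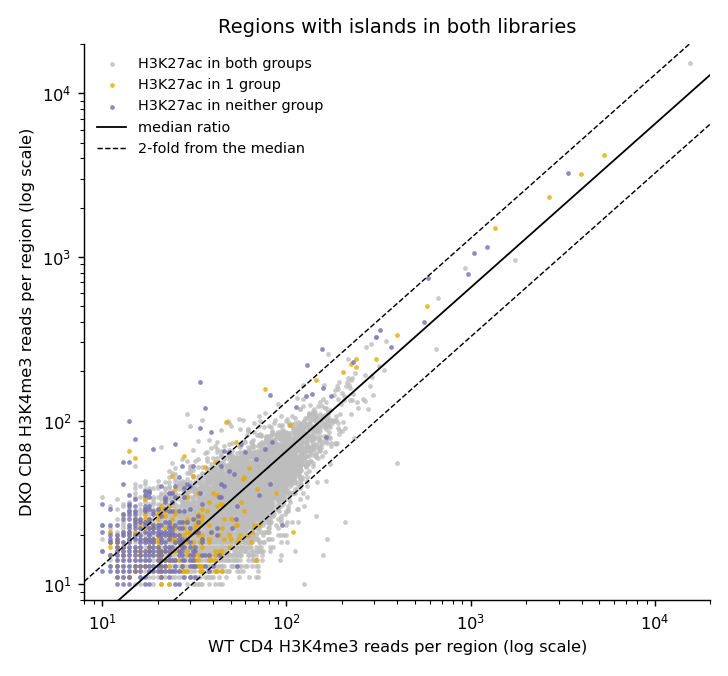
H3K4me3 reads per shared region in DKO CD8 (vertical, log scale) and WT CD4 (horizontal, log scale), coloured by H3K27ac in both groups, in 1 group or in neither; the solid line is the median ratio of 0.65 and the dashed lines are 2-fold from it. Regions with H3K27ac in neither group gather at low reads, mostly above the solid line, with medians of 17 reads in DKO CD8 and 18 in WT CD4. At such reads the minimum of 10 per island limits how low a ratio can be.

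Strong shared regions with the highest ratios were of mixed kinds. Of 434 regions outside chromosome 18 and places with H3K27ac and H3K27me3 of the same group, with 1 island of each library, 100 or more reads on the higher side and at least 50% of each island shared, the highest lay on chromosome 4, 145720201 to 145724600, with 144 reads in DKO CD8 and 81 in WT CD4 (log2 ratio 1.45, 1.05 to 1.86). It had H3K27me3 in both groups (675 reads in DKO CD8, against 267 in WT CD4) and no H3K27ac in any group. Next was chromosome X, 4765601 to 4772400, with 275 reads in DKO CD8, against 156 in WT CD4 (1.44, 1.15 to 1.73) and no H3K27ac in any group. The third and the fourth were acetylated in both groups and held Tcf1 peaks. Chromosome 10, 21711801 to 21715800, had 112 H3K4me3 reads in DKO CD8, against 77 in WT CD4 (1.16, 0.73 to 1.60), with 183 and 140 H3K27ac reads. Chromosome 11, 87567201 to 87571800, had 166 in DKO CD8, against 123 in WT CD4 (log2 ratio 1.05), with 1836 and 2407 H3K27ac reads. On each of these 4 the DKO CD8 island was the wider one. The fifth, chromosome X, 131574801 to 131591000, had 743 reads in DKO CD8, against 586 in WT CD4 (0.96, 0.81 to 1.12) and did not reach 2-fold.

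The lowest ratios of this set all lay at regions with H3K27ac in both groups. Chromosome 17, 88374201 to 88375200, had 24 reads in DKO CD8 and 115 in WT CD4 (log2 ratio -1.64, -2.34 to -0.99), while its H3K27ac reads were 176 in DKO CD8 and 152 in WT CD4. Chromosome 3, 138737001 to 138739000, had 23 in DKO CD8, against 100 in WT CD4 (-1.50, -2.22 to -0.83), with 136 and 144 H3K27ac reads. Chromosome 12, 4923601 to 4925400, had 34 in DKO CD8, against 130 in WT CD4 (-1.31, -1.90 to -0.76), with 238 and 252 H3K27ac reads. H3K4me3 was lower at these places while raw H3K27ac reads were alike. The median H3K27ac log2 ratio of shared regions was -0.32 before centring, so relative to it H3K27ac was higher in DKO CD8 at these places. Chromosome 9, 106270401 to 106272400, had 28 H3K4me3 reads in DKO CD8, against 102 in WT CD4 (-1.24, -1.90 to -0.63) and differed in H3K27ac too, with 28 reads in DKO CD8 and 127 in WT CD4. Chromosome 7, 13608201 to 13610600, had 33 in DKO CD8, against 118 in WT CD4 (-1.22, -1.82 to -0.65), and its H3K27ac reads were 126 in DKO CD8, against 74 in WT CD4. In WT CD8 the 5 regions held 54, 36, 40, 43 and 35 H3K4me3 reads.

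Of the acetylated regions without H3K27me3 in either group, 219 were past 2-fold towards DKO CD8 and 246 past 2-fold in the other direction. Ranking by ratio was limited to those outside chromosome 18 with 1 island of each library and at least 50% of each island shared. The higher library also had to hold at least 50 scaled reads. In that set the highest ratio lay on chromosome 13, 22066001 to 22067000 (95% interval of the log2 ratio 1.11 to 2.97). It had 39 reads in DKO CD8 and 15 in WT CD4. Its H3K27ac reads went the other way, at 36 in DKO CD8 and 83 in WT CD4. This region and the next 2 were chosen after their values were seen. Chromosome 8, 59029201 to 59030800, had 75 in DKO CD8, against 33 in WT CD4 (1.81, 1.20 to 2.44) and a Tcf1 peak. The lowest of that set lay on chromosome 5, 8056201 to 8057200, with 14 in DKO CD8 and 74 in WT CD4 (-1.78, -2.72 to -0.94). A Tcf1 peak lay in 37.4% of the 219 higher regions and in 31.7% of the 246 lower ones, against 38.7% of all 5821 shared regions of this kind.

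H3K4me3 and the other marks were compared at shared regions called for both marks in both groups, each ratio centred on its own median. H3K27ac ratios did not follow H3K4me3: Spearman's rho over 6776 regions was 0.01, and the median H3K27ac log2 ratio was -0.06 both where H3K4me3 was 2-fold higher in DKO CD8 and where it was 2-fold lower. H3K27ac itself was 2-fold higher at 15 of 290 and lower at 15 of 290 regions with higher H3K4me3, and 2-fold higher at 6 and lower at 22 of 312 regions with lower H3K4me3, against 1.61% higher and 4.1% lower of all 6776. H3K9ac followed weakly, with rho 0.18 over 3877 regions. Where H3K4me3 was 2-fold higher in DKO CD8, H3K9ac was 2-fold higher at 27 of 154 regions (17.5%) and 2-fold lower at 0, against 4.13% higher and 3.12% lower of all 3877. DKO CD8 H3K9ac islands held at least 13 reads, which limits lower calls at regions with few H3K9ac reads in WT CD4. Where H3K4me3 was 2-fold lower, H3K9ac was 2-fold higher at 5 of 128 and lower at 8. For H3K27me3 rho was -0.04 over 555 regions, and 6 of the 60 with higher H3K4me3 were 2-fold higher and 6 lower, against 7.75% higher and 9.19% lower of all 555. These rho values are across regions of single libraries, which are not replicates.

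Breadth and reads come from the same called islands, so a tie between them is in part built in. Of 7361 shared regions with 1 island of each library, the DKO CD8 island was wider in 2187 (29.7%), the WT CD4 island in 3679 (50.0%), and the widths were equal in 1495. A difference of at least 1000 bp was found at 194 regions in favour of DKO CD8 and at 462 in favour of WT CD4. Where reads were 2-fold higher in DKO CD8 the median island was 1200 bp in DKO CD8 and 600 bp in WT CD4, and where they were 2-fold lower it was 600 bp in DKO CD8 and 1200 bp in WT CD4. With reads divided by the covered length of each library, 328 shared regions were 2-fold higher and 269 lower. The region with the largest gain in breadth in DKO CD8, chromosome 7, 12595601 to 12602200, held 218 reads over 6600 bp in DKO CD8 and 130 reads over 1600 bp in WT CD4, with H3K27me3 in both groups and no H3K27ac. Chromosome 1, 85190601 to 85197200, held 171 reads over 6200 bp in DKO CD8 and 34 over 1400 bp in WT CD4 (log2 ratio 2.95, 2.41 to 3.53), and chromosome 2, 20303401 to 20310000, held 120 over 6600 bp in DKO CD8 and 36 over 2000 bp in WT CD4 (2.36, 1.81 to 2.94). In the other direction, chromosome 2, 126474201 to 126480800, held 21 reads over 800 bp in DKO CD8 and 108 over 6600 bp in WT CD4 (-1.74, -2.49 to -1.06). Chromosome 11, 98798401 to 98804600, with 2 Tcf1 peaks, held 54 reads over 1600 bp in DKO CD8 and 173 over 6000 bp in WT CD4 (-1.06, -1.53 to -0.61), and its H3K27ac reads were 486 in DKO CD8 and 834 in WT CD4. Chromosome 11, 120207601 to 120212600, held 78 over 1600 bp in DKO CD8 and 233 over 5000 bp in WT CD4, while H3K27ac reads were 472 in DKO CD8 and 224 in WT CD4.

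Wide regions, of at least 4 kb, numbered 86 among the shared ones and had a median log2 ratio of 0.32, with 16 past 2-fold towards DKO CD8 and 4 past it in the other direction. The 57 with H3K27ac in both groups had a median of 0.18, and the 21 with H3K27ac in neither group a median of 0.72. Wide acetylated regions held medians of 124 reads in DKO CD8, against 189 in WT CD4, and 98.2% of them had a WT CD8 H3K4me3 island. By Tcf1 binding the medians were -0.03 at the 2561 regions with a peak and 0.02 at the 4986 without one. At least 2-fold higher in DKO CD8 were 3.67% of those with a peak and 7.32% of those without, and regions with a peak were stronger, with medians of 36 reads in DKO CD8, against 57 in WT CD4. In the strongest of 4 equal strength classes of shared regions the medians were -0.03 with a peak and -0.05 without one.

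Shared regions with an H3K27me3 island in either group numbered 1280 and had a median log2 ratio of 0.07, which was -0.07 on total island reads and -0.04 when the higher library had to hold 50 scaled reads. It was 0.56 without places that carry H3K27ac and H3K27me3 of the same group. The 955 with H3K27ac in both groups had a median of -0.04, with 71 called higher in DKO CD8 and 66 lower, and the 192 with H3K27ac in neither group a median of 0.62, with 47 higher and 3 lower. Of all 1280, 11.2% were called higher in DKO CD8 and 5.70% lower, against 6.08% and 4.31% of all shared regions. H3K27me3 in both groups was found at 555 regions, in DKO CD8 only at 506 and in WT CD4 only at 219. Where it was called in WT CD4 only, the median H3K4me3 ratio was 0.32, with 44 regions higher in DKO CD8 and 4 lower. Where it was called in DKO CD8 only, the median was -0.03, with 40 higher and 33 lower. The regions with 47 higher and 3 lower, and those with 44 and 4, held medians of 21 and 29 reads in WT CD4. At those reads the minimum of 10 in DKO CD8 leaves no room for a 2-fold lower call.

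**Figure D4:**
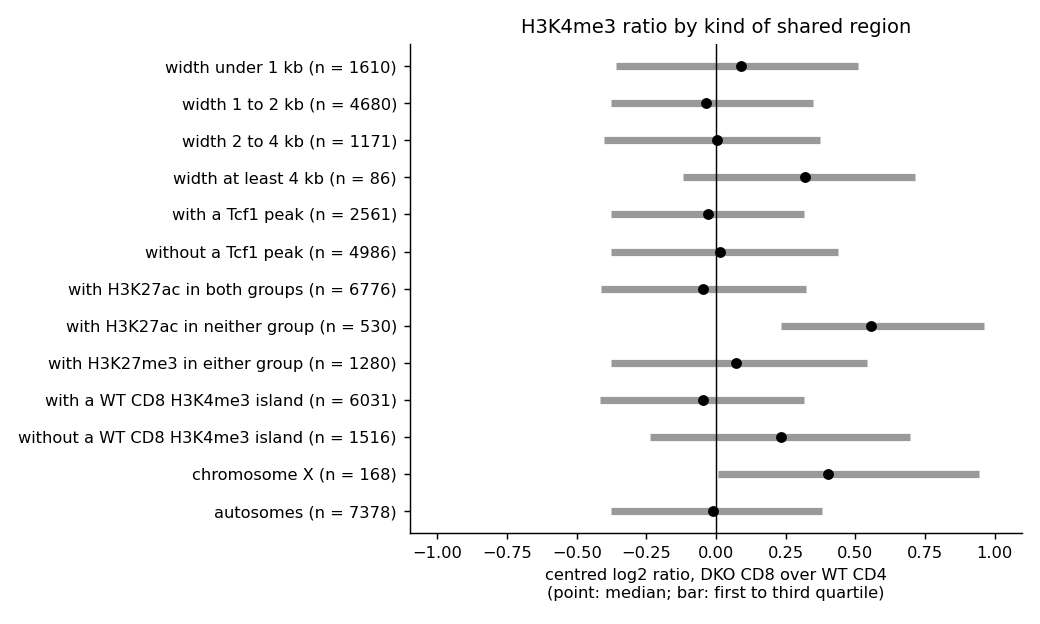
Centred log2 ratio of H3K4me3 reads, DKO CD8 over WT CD4, by kind of shared region; points are medians and bars run from the first to the third quartile over regions. Medians lie highest for regions with H3K27ac in neither group (0.56), on chromosome X (0.40) and at least 4 kb wide (0.32); on total island reads all ratios lie 0.15 lower, which turns the sign for widths under 1 kb and of 2 to 4 kb, for regions without a Tcf1 peak and for those with H3K27me3.

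Chromosome X stood apart. It held 7.14% of the regions of DKO CD8 alone (1124), 1.69% of those of WT CD4 alone (353) and 2.23% of the shared ones (168), while its span from first to last region was 6.35% of the summed span of all chromosomes. Per Mb this is 6.87 regions of DKO CD8 alone on X, within the range of 5.08 to 8.04 on the autosomes, whereas WT CD4 alone had 2.16 on X, below its range of 5.89 to 11.3. Of the X regions of DKO CD8 alone, 66.5% held fewer than 20 reads and 4.27% had H3K27ac in DKO CD8. Shared regions on X had a median log2 ratio of 0.40, above the autosomal medians of -0.10 to 0.12, and 36 of 168 (21.4%) were called higher in DKO CD8 while 2 were lower. At their median of 27 reads in WT CD4, a 2-fold lower call would need fewer DKO CD8 reads than the minimum of 10. The ratio was also above 0 for X regions acetylated in both groups (0.33 over 138 regions), where the autosomal median was -0.05. In each of 4 strength classes the X median was above the autosomal one, at 0.45 against 0.21 in the weakest and 0.96 against -0.04 in the strongest, which holds 15 X regions. The share of all islands on X was 5.54% in DKO CD8 and 1.84% in WT CD4 for H3K4me3, 3.54% and 1.63% for H3K27me3, 3.04% and 1.96% for H3K9ac, and 1.99% and 1.89% for H3K27ac. In WT CD8 it was 4.44% for H3K4me3, 6.36% for H3K27me3, 1.30% for H3K9ac and 6.30% for H3K27ac. A high H3K4me3 share on X was thus not particular to the deficient cells.

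Regions of DKO CD8 alone that also had H3K27ac in DKO CD8 but not in WT CD4 numbered 474 (3.01%), with a median of 17 reads. Outside places with H3K27ac and H3K27me3 of the same group, the strongest, chromosome 3, 146139801 to 146141400, held 78 H3K4me3 and 82 H3K27ac reads in DKO CD8 and had no island of any other histone library. Chromosome 14, 80488601 to 80491000, held 51 H3K4me3 reads in DKO CD8 and 67 in WT CD8. Chromosome 1, 192603601 to 192606000, held 49 H3K4me3, 31 H3K27ac and 72 H3K9ac reads in DKO CD8, and also 79 H3K9ac reads in WT CD4. Chromosome 16, 3324401 to 3326400 (49 reads), and chromosome 9, 3461201 to 3463600 (48 reads), came next. None of these 5 held a Tcf1 peak, and 1.05% of the 474 did. With H3K27ac and H3K9ac both in DKO CD8 and neither in WT CD4 there were 33 regions, and 22 also had H3K27me3 beside H3K27ac in 1 group. Of the 33, 20 (60.6%) had H3K4me3 in WT CD8, against 10.4% of all regions of DKO CD8 alone. They were stronger, with a median of 27 reads against 15, and that share was 51.5% for regions of DKO CD8 alone with at least 50 reads. Of the 33, chromosome 7, 50692401 to 50694200, held 40 H3K4me3, 233 H3K27ac and 55 H3K9ac reads in DKO CD8 and a Tcf1 peak, with 35 H3K4me3 reads in WT CD8. Chromosome 11, 72903801 to 72905800, held 36, 190 and 62 reads of these marks in DKO CD8, with 23 H3K4me3 reads in WT CD8. Both were chosen after their values were seen.

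Regions of WT CD4 alone with H3K27ac in WT CD4 but not in DKO CD8 numbered 903 (4.33%), with a median of 19 reads. The strongest, chromosome 5, 33075801 to 33082400, held 365 H3K4me3, 779 H3K27ac and 266 H3K9ac reads in WT CD4, with no island of these marks in DKO CD8, and 195 H3K4me3 reads in WT CD8. Chromosome 3, 89189801 to 89192400, held 100 H3K4me3, 389 H3K27ac and 68 H3K9ac reads in WT CD4. Chromosome 7, 148823201 to 148825800, held 90, 92 and 106 reads of the 3 marks, chromosome 11, 18231601 to 18232400, held 83, 73 and 66, and chromosome 14, 69984801 to 69988200, held 67, 88 and 47. These last 3 had islands in WT CD4 only among the 3 thymocyte groups. With H3K27ac and H3K9ac both in WT CD4 and neither in DKO CD8 there were 287 regions, and 121 were places with H3K27me3 beside H3K27ac in 1 group. Of the 287, 99 (34.5%) had H3K4me3 in WT CD8, against 10.1% of all regions of WT CD4 alone. They were stronger, with a median of 23 reads against 16, and that share was 51.6% for regions of WT CD4 alone with at least 50 reads. The H3K9ac list of DKO CD8 is the shorter one, as given above.

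H3K27me3 of the other group at acetylated single-library regions was close to its share over all such regions. Of the 474 regions of DKO CD8 alone with H3K27ac in DKO CD8 only, 30 (6.33%) had H3K27me3 in WT CD4 and not in DKO CD8, with 10 to 37 H3K4me3 reads, against 5.34% of all regions of DKO CD8 alone. Of the 903 regions of WT CD4 alone with H3K27ac in WT CD4 only, 36 (3.99%) had H3K27me3 in DKO CD8 but not in WT CD4, with 13 to 100 H3K4me3 reads, against 3.12% of all regions of WT CD4 alone. H3K27me3 in the same group only lay at 12.2% of the 474, against 5.50% of all regions of DKO CD8 alone, and at 10.1% of the 903, against 9.01% of all regions of WT CD4 alone. The strongest of the 36 was the region on chromosome 3, 89189801 to 89192400. It lay inside a single DKO CD8 H3K27me3 island of 59.4 kb, at 89150801 to 89210200, with 2594 reads (43.7 reads per kb).

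Over that domain, counting whole islands that overlap it, H3K4me3 covered 1.0 kb in 1 island with 26 reads in DKO CD8 and 10.4 kb in 7 islands with 336 reads in WT CD4. H3K27ac covered 7.4 kb with 156 reads in DKO CD8 and 22.4 kb with 529 reads in WT CD4, of which 17.8 kb were 1 island. In kb from the centre of the WT CD4 H3K4me3 region, that island ran from -9.1 to 8.7. DKO CD8 had H3K27ac islands within it at 1.7 to 2.9, 3.7 to 5.3 and 6.5 to 8.1. The region ended at 1.3, and the DKO CD8 H3K4me3 island lay beside it at 1.7 to 2.7. WT CD4 and WT CD8 had H3K4me3 islands there too, at 1.7 to 2.5 and 1.7 to 2.3. No H3K9ac island was called in DKO CD8, and 5 were called in WT CD4 with 216 reads. H3K27me3 in WT CD4 covered 21.4 kb, all of it at least 14.3 kb from the centre of the region on 1 side. WT CD8 had 46.6 kb of H3K27me3 in 6 islands with 732 reads, and 5 H3K4me3 islands with 135 reads. Both CD8 groups thus had H3K27me3 on both sides of the region, and WT CD4 on 1 side. No Tcf1 peak lay in the domain. The next regions of this kind were weaker: chromosome 2, 153474801 to 153477200, with 62 H3K4me3 reads in WT CD4 and 61 H3K27me3 reads in DKO CD8, and chromosome 16, 3383201 to 3385600, with 60 and 90.

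**Figure D5:**
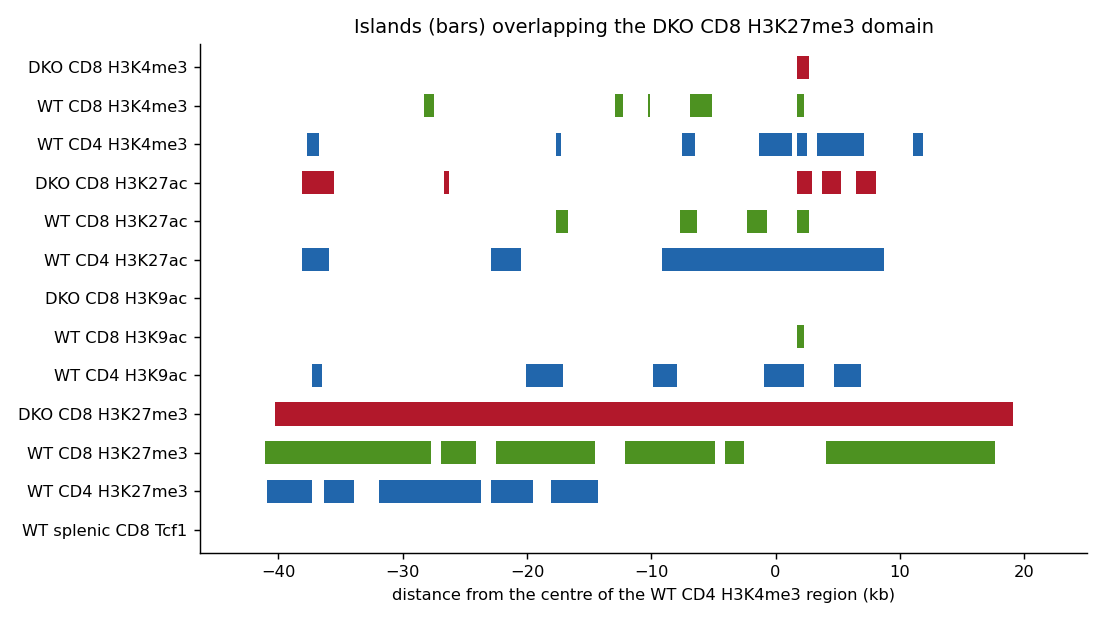
Islands of the 4 histone marks in DKO CD8, WT CD8 and WT CD4, and Tcf1 peaks (none), over the DKO CD8 H3K27me3 island of 59.4 kb on chromosome 3; the horizontal axis is the distance in kb from the centre of the WT CD4 H3K4me3 region, and each bar is 1 island, with no height scale. DKO CD8 has 1 H3K4me3 island, 5 H3K27ac islands and unbroken H3K27me3, WT CD4 has 7 H3K4me3 islands and an H3K27ac island of 17.8 kb.

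Where H3K27ac was present in both groups but H3K4me3 was called in 1, the WT CD4 side was the larger, with 638 regions in DKO CD8 alone (median 17 reads) and 2292 in WT CD4 alone (median 25 reads). Without H3K27me3 in either group the strongest of DKO CD8 alone, chosen after their values were seen, were chromosome 5, 77360001 to 77364200, with 99 reads in DKO CD8 and 100 in WT CD8, and chromosome 11, 88755401 to 88758000, with 72 and 61. Chromosome 11, 95215401 to 95218000, had 67 reads in DKO CD8 and no island in WT CD8, with 448 H3K27ac reads in DKO CD8 and 307 in WT CD4. The strongest of WT CD4 alone were chromosome 11, 106805001 to 106811400, with 183 reads in WT CD4 and 301 in WT CD8, and chromosome 11, 5068401 to 5070600, with 90 reads in WT CD4 and none in WT CD8. A Tcf1 peak lay in 22.1% of the 638 and in 21.0% of the 2292, against 37.5% of the 6776 shared regions with H3K27ac in both groups.

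The places with the most reads were of another kind. Of the 85 shared regions with 200 or more scaled reads (those of DKO CD8 divided by the median ratio) in 1 library or both, 63.5% had H3K27ac in both groups and 67.1% had H3K27me3 in either, against 97.8% and 19.2% of the 801 with at least 100 and fewer than 200 scaled reads. Chromosome 11, 3025001 to 3100200, held 15362 H3K4me3 reads in DKO CD8, against 15413 in WT CD4, and H3K27ac and H3K27me3 in both groups as well. Chromosome 17 held 4184 in DKO CD8 and 5269 in WT CD4 at 39979801 to 39986000, and 3220 in DKO CD8 and 3973 in WT CD4 at 13739401 to 13746800, both with H3K27ac in DKO CD8 and not in WT CD4. Outside such places with both marks of 1 group, chromosome 10, 7229001 to 7235600, held 3242 in DKO CD8 and 3392 in WT CD4 without H3K27ac in either. It was followed by chromosome 10, 57683601 to 57698200 (1142 in DKO CD8 and 1225 in WT CD4), chromosome 8, 56196801 to 56209200 (1051 and 1038), and chromosome 6, 29697601 to 29699200 (783 and 967), all without H3K27ac and with H3K27me3 in DKO CD8 and WT CD4. The first of these and chromosome 8 were, after the chromosome X region of 16.2 kb named above, the widest shared regions outside those places, at 14.6 and 12.4 kb. Among regions of 1 library, chromosome 2, 98506201 to 98507600, held 8885 reads in DKO CD8 and chromosome 7, 67002201 to 67047600, held 3103, neither with H3K27ac in DKO CD8. Chromosome 9, 35112601 to 35113400, held 2865 reads in DKO CD8 over 800 bp and had no island in any other histone library. In WT CD4 alone, chromosome 4, 118219601 to 118221400, held 1378 reads and chromosome X, 166609201 to 166635000, held 955, followed by chromosome 4, 3006401 to 3013600, with 610. The 100 islands with the most reads made up 12.5% of the island reads in DKO CD8 and 7.60% in WT CD4. Places of this kind were not filtered out. They enter the counts and medians given above, such as those of wide regions without H3K27ac, and the total island reads.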

How the data were processed

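ChIP-seq libraries of sorted mouse thymocytes were compared from the authors' files. Per the submitters' processing notes, mm9 was the build, and MACS 1.4.2, SICER 1.1, Bowtie2 2.2.5 and FastQC were used, without saying for which step. Each deposited island has a raw read count and edges on a grid of 200 bp. Of the Tcf1 peaks, to which the authors gave a score of 50 or more, positions alone entered. Depth stands for reads in islands, because total reads per library were not among the inputs. A second round of sequencing was done for several unnamed libraries, per the labels' protocols.

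Islands sharing at least 1 bp were merged into regions. Reads of another mark at a region are those of the whole islands that overlap it, which can reach beyond it. Log2 ratios were centred on the median of shared regions, and a region was called at 2-fold. The 95% intervals are Clopper-Pearson (exact), for ratios conditional on the sum of both counts, and cover counting error only. Ties in rank were broken at random with a fixed seed. Named regions followed fixed rules: the 5 highest and 5 lowest ratios of the strong set; for each library alone the 5 with the most reads among those acetylated in that group only and 3 of the rest; the 5 with the most reads; the 3 widest; and 3 per direction by breadth. Regions with H3K27ac and H3K27me3 islands of the same group (2515 in all) were named apart, and chromosome 18 was not named. Exceptions are marked in the text. The members and rules were chosen with earlier results of these data known. Gene lists and marker genes were planned for an mm9 annotation and were not used here. Scripts ran in Python 3.11.15 with SciPy 1.17.1, pandas 2.3.3 and numpy 2.4.6, and figures were drawn with matplotlib 3.10.9. Merging was checked against bedtools 2.31.1, and the step that computes ratios was run on simulated data with known answers.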

Additional observations from a re-analysis of the deposited data

How the results depend on the processing

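Of 45 alternative values, 29 stayed within their limits, 14 moved and 2 changed sign. The limits were 1.5 times for counts, the 95% interval for medians and any visible change for the Jaccard index. The Jaccard index, the shared share of the covered sequence, was 16.0% as deposited, 18.3% at equal covered length, 24.0% with islands above the median reads of their list, 14.4% without places that carry H3K27ac and H3K27me3 of the same group, and 16.2% on autosomes. With islands above the median, 5602 regions were of DKO CD8 alone and 7040 of WT CD4 alone, since fewer islands enter. The 2-fold calls in DKO CD8 were 302 higher and 534 lower on total island reads, 226 higher where the higher library held 50 scaled reads or more, and 268 higher and 153 lower with 1 island of each library sharing at least 50% of each. The median ratio of regions with H3K27me3 turned to -0.073 on total island reads and -0.038 with at least 50 reads. It was 0.56 without places that carry both marks, which leaves only regions without acetylation in a group that has H3K27me3. The median of wide regions stayed above 0 in each alternative, between 0.17 and 0.43. No paired analysis was possible because each group has 1 library per mark. Total reads per library are not known, so what depth limits was not tested. Regions of 1 library held medians of 15 reads in DKO CD8 and 16 in WT CD4, against a minimum of 10 per island.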

Other observations

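Over the 8117 regions with H3K27ac in both DKO CD8 and WT CD4 and no H3K27me3 in either, H3K4me3 was called in DKO CD8, WT CD4 and WT CD8 at 5050. WT CD8 alone lacked it at 771, DKO CD8 alone at 814 and WT CD4 alone at 156, while 397 had it in DKO CD8 only and 929 in WT CD4 only. A Tcf1 peak lay in 39.5% of the regions of all 3 groups, 32.9% of those without WT CD8, 28.9% of those without DKO CD8 and 25.6% of those without WT CD4. The regions without DKO CD8 held a median of 31 reads in WT CD4, and 74 of them held at least 50. The regions without WT CD4 held a median of 21.5 reads in DKO CD8, and 8 held at least 50. The H3K4me3 lists differ in length, with 23411 islands in DKO CD8, 28449 in WT CD4 and 42013 in WT CD8, and the part of this in the counts was not tested.

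Regions of DKO CD8 alone overlapped H3K27ac islands of WT CD8 (2991 of 15742) more often than those of DKO CD8 (1112 of 15742). The order was the other way for regions of WT CD4 alone (2415 with WT CD8 and 3072 with DKO CD8 H3K27ac, of 20831) and for shared regions (5528 and 6896, of 7547). H3K27ac islands cover 83.5 Mb in WT CD8 and 59.1 Mb in DKO CD8.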
